A study of Mus musculus with 6 samples.

Results

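Coagulation and fibrinolysis genes carried by monocytes were followed across 6 RNA sequencing libraries of mice with nephrotoxic nephritis, an antibody-driven injury of the glomerulus. The set holds 9 of the 24047 rows of the count table, chosen by name as a coagulation factor, an anticoagulant or a gene of the plasminogen system: F3, F5, F7, F10, F13a1, Serpinb2, Thbd, Plau and Plaur. Every animal of the series was wild type, of a strain labelled C5/Bl6, given nephritis and killed on day 13; ages are labelled 8 to 10 weeks for the samples. The kidney group has 3 libraries (replicates 7, 8 and 22, labelled double_pos) and the other group, from spleen and bone marrow and here called spleen/marrow, has 3 (replicates 2, 24 and 26, labelled double). The sorting markers are not named in the labels, and only the enrichment of the renal cells is described. No healthy animals were used, so tissue, disease and handling cannot be told apart. Whether replicates are single animals or pools is not stated for the 10 mice, so the p-values cover the spread among these libraries, which may be technical.

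Clotting starts when tissue factor, encoded by F3, meets factor VII on a cell surface. The complex activates factor X, which with factor V makes thrombin, and thrombin makes fibrin that factor XIII then crosslinks. Thrombomodulin turns thrombin towards anticoagulation, and plasmin, made from plasminogen by urokinase bound to its receptor uPAR, dissolves the clot. Monocytes and macrophages are known to supply tissue factor, the A subunit of factor XIII, uPAR and the urokinase inhibitor encoded by Serpinb2, and fibrin deposits are a known feature of nephrotoxic nephritis.

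Library totals ran from 3492391 to 9727489 counts, with kidney replicate 22 the smallest. Kidney replicate 22 also stood apart, with Pearson correlations of log2 CPM (counts scaled to library size) across genes of 0.838 and 0.840 with the other kidney libraries, which correlated at 0.938. Spleen and marrow replicates 24 and 26 were nearer to each other than any other pair of a group (chi-square per degree of freedom 2.86, against 22.2 to 59.7). All 8 monocyte markers, among them Csf1r and Lyz2, were detected in every library. Their levels differed between groups in both directions, and most of them were higher in kidney. Csf1r stood at 109 to 120 CPM in spleen/marrow and 277 to 457 CPM in kidney. Lyz2 stood at 36591 to 53871 CPM in spleen/marrow and 29441 to 32061 CPM in kidney. Other markers of the list differed more than these, so detection does not make the groups alike. Markers of other cell types were also detected. Neutrophil and precursor markers summed to between 9645 and 12186 CPM in spleen/marrow and to 558, 1564 and 16524 CPM in kidney replicates 7, 8 and 22. In replicate 22 the sum rested mostly on Ngp (8146 CPM) and Camp (5261 CPM). There Elane was at 246 CPM, against 1078 to 1727 in spleen/marrow, and Mpo at 37.3 CPM, against 221 to 357. Prtn3 and Mmp8 also lay below the spleen/marrow values, Ltf and Lcn2 above them and Retnlg between them. Endothelial markers summed to at most 11.9 CPM in spleen/marrow and to 29.9, 938 and 22.02 CPM in kidney replicates 7, 8 and 22. Kidney tubule markers summed to at most 3.01 CPM in spleen/marrow and to 190, 83.4 and 510 CPM in kidney libraries 7, 8 and 22. Of the defining markers, Tek and Esam of endothelium and Lrp2, Umod, Slc12a1 and Aqp2 of tubule were at 0 in all spleen/marrow libraries, and none of either list was at 0 throughout kidney.

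Set side by side per transcript length, in the deposited FPKM values (scaled for length and depth), 3 members lay far above the other 6. In spleen/marrow Plaur, the uPAR gene, led at 68.5, 104 and 108 FPKM in replicates 2, 24 and 26. F13a1, for the A subunit of factor XIII, followed at 46.4 to 58.9 FPKM and F10, for factor X, at 29.3 to 37.3 FPKM, with no overlap between these neighbours. F7 (1.01 to 1.43 FPKM), F5 (0.630 to 1.13 FPKM) and Thbd (0.540 to 0.870 FPKM) came next, and each overlapped its neighbour in the order. Plau, for urokinase, and Serpinb2 lay below 0.3 FPKM and overlapped, and F3 was listed at 0 in replicates 2 and 24 and at 0.022 FPKM in replicate 26.

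In kidney Plaur again led, at 115, 102 and 65.0 FPKM in replicates 7, 8 and 22. F13a1 stood at 35.1, 11.97 and 11.6 FPKM and F10 at 24.04, 18.5 and 11.9 FPKM, so that these neighbours overlapped there. Their order by mean (F13a1 first) turned when the median was used. F7 ranged from 0.894 to 4.26 FPKM, below every F10 value, and the remaining 5 members overlapped one another. Within each library the Plaur to F13a1 ratio of FPKM was 1.48, 1.77 and 2.11 in spleen/marrow replicates 2, 24 and 26, against 3.28, 8.56 and 5.63 in kidney replicates 7, 8 and 22. The groups did not overlap in this ratio, which needs no scaling between libraries and was chosen after its values were seen.

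**Figure D1:**
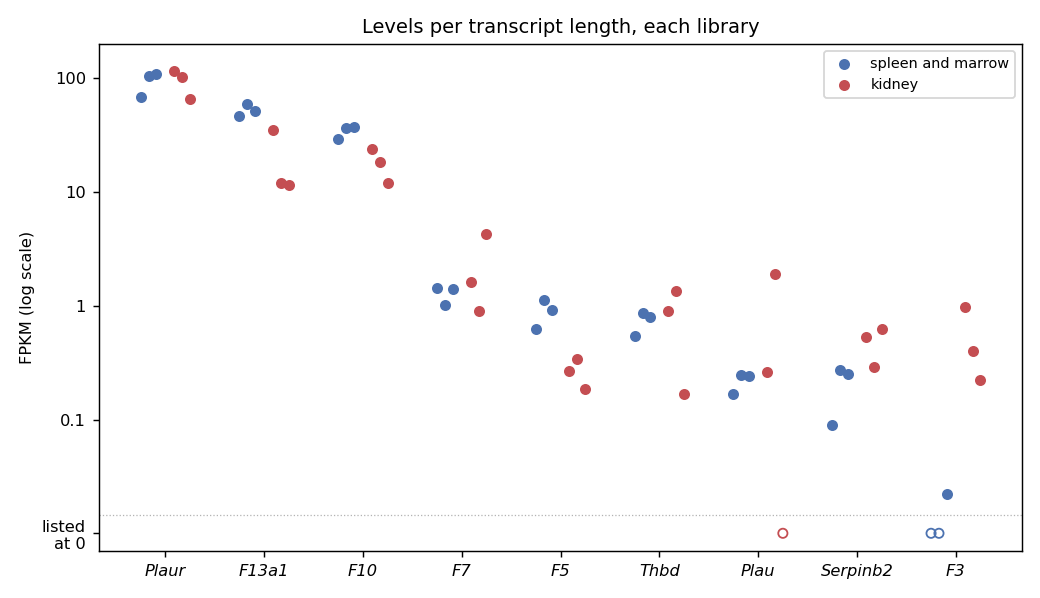
Deposited FPKM (vertical axis, log scale) of the 9 members in each of the 6 libraries, ordered from left by the spleen/marrow mean; blue points are spleen/marrow, red points kidney, each in the order of replicate numbers, and open points at the bottom are listed at 0. Plaur, F13a1 and F10 lie at or above 11.6 FPKM in every library and the other members at or below 4.26 FPKM.

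In the count test, 7 of the 9 members passed the filter on low counts; F3 and Plau did not. Of these 7, F5 and F10 fell in kidney and none rose (edgeR quasi-likelihood test, two-sided, Benjamini-Hochberg adjusted p under 0.05 over 10626 genes). Over all genes tested 5.90% were called lower and 7.83% higher in kidney. For F5, F10 and F13a1 every kidney library lay below every spleen/marrow library, against 18.8% of all genes tested. The median log2 fold change of the 7 was 0.07, beside 0.05 over all genes tested. Serpinb2 passed the filter through its kidney libraries, all 3 of which reached the filter's minimum against 1 in spleen/marrow.

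F10, whose product is the protease that makes thrombin, stood at 179, 217 and 227 CPM in spleen/marrow replicates 2, 24 and 26, against 142, 106 and 94.0 CPM in kidney replicates 7, 8 and 22. Every kidney library lay below every spleen/marrow library. This gave a log2 fold change of -0.87 ± 0.19 (SE, adjusted p = 0.0235 in edgeR), a level 1.82-fold higher in spleen/marrow. F5, for the cofactor of factor X, stood at 11.8, 21.9 and 17.6 CPM in spleen/marrow replicates 2, 24 and 26, against 4.74, 7.08 and 5.29 CPM in kidney replicates 7, 8 and 22. Here too the groups did not overlap, and the kidney libraries lay close together. F5 had a log2 fold change of -1.58 ± 0.36 (SE, adjusted p = 0.0257 in edgeR), a level 2.98-fold higher in spleen/marrow. In samples of many cells, fewer cells of a type and less RNA per cell cannot be told apart.

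Both calls needed all 3 spleen/marrow libraries. Such losses were common: of all genes tested, 627 were called lower, against 207, 208 and 179 without replicate 2, 24 or 26. Without replicate 2, 24 or 26 the edgeR adjusted p was 0.0585, 0.103 and 0.120 for F10 and 0.0595, 0.140 and 0.126 for F5, and for F5 it was 0.0642 without kidney replicate 7. The direction was the same each time, with log2 fold changes from -1.04 to -0.77 for F10 and from -1.80 to -1.38 for F5. F5 overlaps the gene models Gm16548 and Gm51287 in RefSeq. The libraries do not mark strand, so reads from the shared stretches cannot be told apart. Gm16548 had 37, 62 and 83 counts in spleen/marrow replicates 2, 24 and 26, against 6, 11 and 10 in kidney replicates 7, 8 and 22, beside 103, 160 and 164 and 40, 56 and 18 counts of F5. Among tested genes whose mean log2 CPM reached 4, the ones most like F10 over the 6 libraries were Slc35c1 and Panx1 (Pearson r of log2 CPM 0.992 and 0.989), and those most like F5 were Mid1ip1 and Cnn2 (0.996 and 0.984). These coefficients describe 6 libraries in 2 groups.

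The 250 bases before the start of F10 (chr8:13037058-13037307, plus strand) and F5 (chr1:164151585-164151834, plus strand) are shown because these are the members that fell together. They are from a table of RefSeq promoter windows on GRCm38.p6, which held 7 of the 9 members and lacked Thbd and Plau. They were searched on both strands for an AP-1 motif (TGANTCA), a PU.1 motif (GAGGAA), a C/EBP motif (TTGNGNAA) and an Egr motif (GNGGGGGCG), and matches are in capitals. None of the 4 was present in either window. Among members not shown, F13a1 held 1 PU.1 and 1 C/EBP match in 1 of its 2 windows, and F7 held 1 PU.1 match. Of 32851 RefSeq windows of the same length, 6.75% held the AP-1, 23.3% the PU.1, 11.7% the C/EBP and 6.93% the Egr letters.
F10: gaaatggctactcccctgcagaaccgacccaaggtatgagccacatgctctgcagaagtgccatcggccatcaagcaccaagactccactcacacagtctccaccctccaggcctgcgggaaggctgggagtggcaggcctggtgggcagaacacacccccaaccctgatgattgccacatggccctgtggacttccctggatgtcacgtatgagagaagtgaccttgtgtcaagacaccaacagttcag
F5: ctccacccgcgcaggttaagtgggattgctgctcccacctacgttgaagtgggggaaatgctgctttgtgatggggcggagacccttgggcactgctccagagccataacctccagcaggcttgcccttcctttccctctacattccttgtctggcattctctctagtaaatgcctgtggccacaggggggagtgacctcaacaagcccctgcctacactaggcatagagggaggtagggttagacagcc

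F13a1, for the A subunit that crosslinks fibrin, stood at 445, 561 and 485 CPM in spleen/marrow replicates 2, 24 and 26, against 334, 104 and 157 CPM in kidney replicates 7, 8 and 22. All kidney values lay below all spleen/marrow values, but kidney replicate 7 lay nearer to the lowest of them than to the next kidney value. With that spread the log2 fold change of -1.32 ± 0.38 (SE) missed the threshold (edgeR adjusted p = 0.0600, 95% interval -2.21 to -0.43 before adjustment). Without kidney replicate 7 it was -1.92 with edgeR adjusted p = 0.00583, and with all libraries DESeq2 gave adjusted p = 0.0023 and limma-voom 0.0226. F13a1 is also known from megakaryocytes, whose markers summed to 4.59 to 8.34 CPM in spleen/marrow and to 17.8, 83.5 and 33.5 CPM in kidney replicates 7, 8 and 22; their part was not tested. Of the 11 markers, Gp5 and Gp6 were among those at 0 in spleen/marrow, and the sum of kidney replicate 22 rests on Gp1bb and Ppbp, with Gp9, Clec1b, Itga2b, Gp1ba and Treml1 at 0 there. The gene models Gm30489 and Gm30240 overlap F13a1 in RefSeq and have no row in the table.

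The 2 starters of the cascade were rare. F3, for tissue factor, had 0, 0 and 1 counts in spleen/marrow replicates 2, 24 and 26, against 33, 13 and 0 counts in kidney replicates 7, 8 and 22. The signal was in kidney replicates 7 and 8 and not in 22, where 3 counts would be 0.881 CPM. Pooled, the ratio of kidney to spleen/marrow was 59.0 (95% exact binomial interval 10.1 to 2381, counting error only), and 29.1 without kidney replicate 7. Podocytes are a known source of tissue factor in kidney. Podocyte markers summed to 2.84, 68.2 and 5.87 CPM in kidney replicates 7, 8 and 22, with Nphs1 and Wt1 among those at 0 in spleen/marrow, and the tubule sums are given above; their part in the F3 counts was not tested.

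F7, for the protease that tissue factor binds, stood at 5.97, 5.06 and 6.65 CPM in spleen/marrow replicates 2, 24 and 26, against 7.35, 4.04 and 26.1 CPM in kidney replicates 7, 8 and 22. Replicate 22 was the high library, and the other kidney libraries lay on either side of the spleen/marrow values. F7 had a log2 fold change of 1.05 ± 0.66 (SE, adjusted p = 0.349 in edgeR, 95% interval -0.48 to 2.57), and -0.07 without kidney replicate 22. Replicate 22 also held the highest tubule sum and, mostly through Ngp and Camp, the highest neutrophil and precursor sum. The part of these cells was not tested. F7 and F10 are neighbours in the genome, and their FPKM ratio was 0.357 in replicate 22 against 0.028 to 0.067 in the other 5 libraries.

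**Figure D2:**
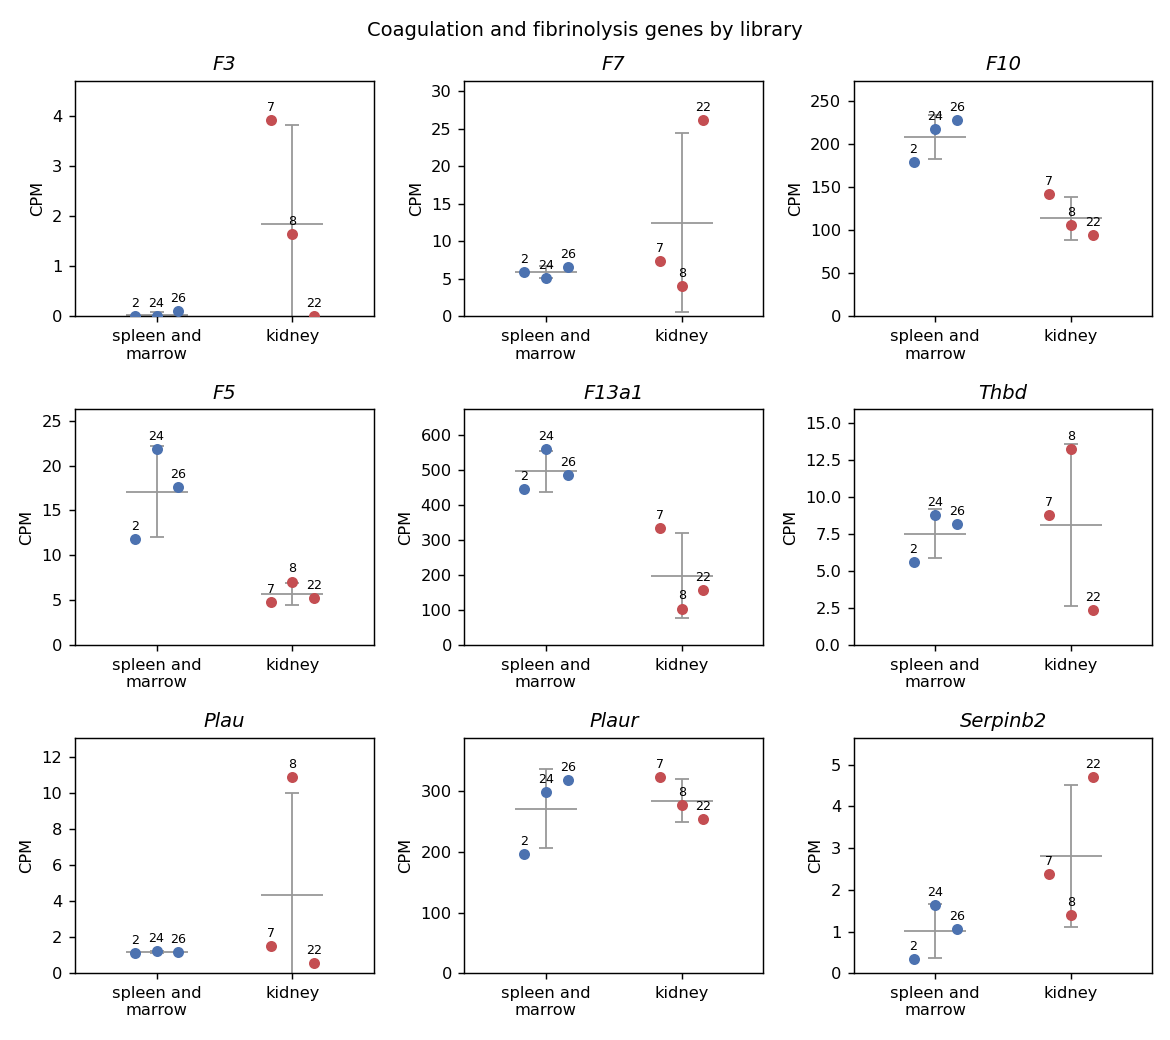
CPM (vertical axes, each from 0) of the 9 members in spleen/marrow (blue) and kidney (red) libraries; numbers are replicates, the grey line is the mean and the bars are 1 SD (n = 3), which reach below 0 for F3 and Plau and end at the axis. The groups do not overlap for F10, F5 and F13a1, and 1 kidney library stands high for F7 (replicate 22) and for Plau (replicate 8).

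Thbd, for thrombomodulin, the thrombin receptor that activates protein C, stood at 5.63, 8.76 and 8.15 CPM in spleen/marrow replicates 2, 24 and 26, against 8.77, 13.3 and 2.35 CPM in kidney replicates 7, 8 and 22. The kidney libraries spanned the whole range of the other group. The log2 fold change was 0.15 ± 0.57 (SE, adjusted p = 0.897 in edgeR, 95% interval -1.17 to 1.46), an interval that spans changes of 2-fold either way. Endothelium also makes thrombomodulin, and replicate 8 had the highest Thbd level and the highest endothelial sum, whose part was not tested. Without that library the log2 fold change was -0.40 and without spleen/marrow replicate 2 it was -0.05.

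In the plasminogen system the receptor was abundant and its ligand was not. Plaur stood at 196, 298 and 318 CPM in spleen/marrow replicates 2, 24 and 26, against 322, 277 and 253 CPM in kidney replicates 7, 8 and 22. The groups overlapped, with the lowest value in spleen/marrow replicate 2. The log2 fold change was 0.07 ± 0.20 (SE, adjusted p = 0.861 in edgeR), and its 95% interval of -0.40 to 0.54 leaves room for changes of under 1.5-fold. Its sign turned without spleen/marrow replicate 2 (-0.13) or kidney replicate 7 (-0.02) and on the FPKM scale.

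Plau had 10, 9 and 11 counts in spleen/marrow replicates 2, 24 and 26, against 13, 86 and 2 counts in kidney replicates 7, 8 and 22, or 1.15, 1.23 and 1.18 against 1.54, 10.9 and 0.587 CPM. Kidney replicate 8 alone was high, and the other kidney values lay just above and just below the spleen/marrow values. That library also held the highest endothelial, podocyte and platelet sums, and their part was not tested. Serpinb2, for plasminogen activator inhibitor 2, stood at 0.345, 1.64 and 1.07 CPM in spleen/marrow replicates 2, 24 and 26, against 2.37, 1.39 and 4.70 CPM in kidney replicates 7, 8 and 22. Its groups overlapped through kidney replicate 8. Its log2 fold change was 1.42 ± 0.77 (SE, adjusted p = 0.279 in edgeR, 95% interval -0.37 to 3.20), on 25 counts in spleen/marrow and 47 in kidney.

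The windows before F3 (chr3:121723287-121723536, plus strand) and Plaur (chr7:24462233-24462482, plus strand), from the same RefSeq table, are shown because both held the AP-1 letters. Serpinb2 also held 1 AP-1 match, which its 2 overlapping windows share, from -94 in 1 window and from -181 in the other. F3 held 2 AP-1 matches, whose first bases lie at -146 and -135, where -1 is the base before the start. Plaur held 1 AP-1 match, from -69, and 2 PU.1 and 2 overlapping Egr matches. Capitals mark all matches. A match describes letters, not a bound site.
F3: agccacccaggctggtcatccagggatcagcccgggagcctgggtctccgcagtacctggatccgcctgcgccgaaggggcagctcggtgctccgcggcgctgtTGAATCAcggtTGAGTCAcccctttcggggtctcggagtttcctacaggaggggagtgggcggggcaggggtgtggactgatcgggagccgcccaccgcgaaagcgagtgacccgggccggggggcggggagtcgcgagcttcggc
Plaur: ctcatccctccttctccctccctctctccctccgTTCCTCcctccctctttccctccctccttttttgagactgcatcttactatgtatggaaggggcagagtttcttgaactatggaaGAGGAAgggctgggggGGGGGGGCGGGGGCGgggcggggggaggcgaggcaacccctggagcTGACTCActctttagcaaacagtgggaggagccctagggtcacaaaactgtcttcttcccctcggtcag

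Among 9 regulators known to act on F3 or Thbd, only Egr1 passed, higher in kidney, and none was lower. As 7.83% of all genes tested rose in kidney, the Egr1 call does not show a rise of these regulators as a set. Egr1, an immediate early factor, rose from 19.6 ± 7.04 to 71.9 ± 10.4 CPM (mean ± SD, n = 3), a log2 fold change of 1.87 ± 0.28 (SE, adjusted p = 0.00564 in edgeR). The call held on leaving out each library in turn.

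**Figure D3:**
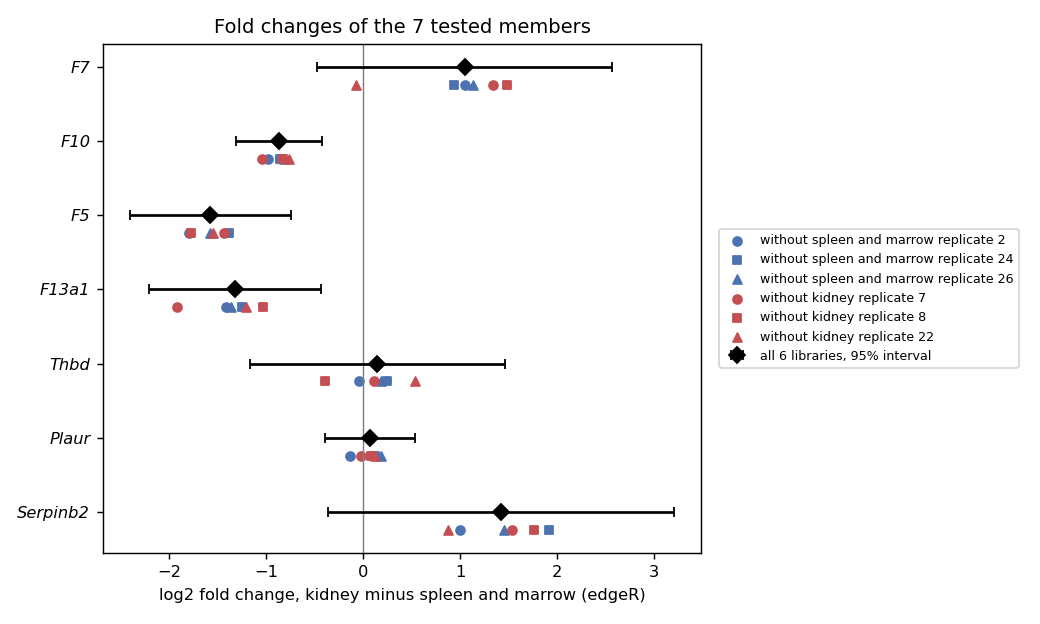
Log2 fold change (horizontal axis, kidney minus spleen/marrow, edgeR) of the 7 tested members; black diamonds use all 6 libraries with 95% intervals, and the coloured points below each leave out 1 library. F10, F5 and F13a1 stay left of 0 in every setting drawn, while F7, Thbd and Plaur cross 0 when single libraries are left out.

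Other genes of the pathway were read from the same test. Of 85 genes in 11 lists, 52 were tested, and 15 rose and 2 fell in kidney (edgeR, adjusted over all genes), where 7.83% of all genes tested rose and 5.90% fell. The 2 of 52 that fell are no larger a share than that background, and 5 of the 15 that rose passed the count filter through the kidney libraries only. Serpine2, Itgax and Tgm2 also needed kidney libraries to pass. For each, 2 spleen/marrow libraries reached the filter's minimum, against 3 in kidney. The median log2 fold change of the 52 was 0.36, beside 0.05 over all genes tested. Without spleen/marrow replicate 2, 24 or 26 the number that rose was 6, 6 and 5, and without kidney replicate 22 it was 22, with 5 that fell.

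The pair that fell was the plasminogen-binding complex on the cell surface. Anxa2, for annexin A2, fell from 1629 ± 67.6 to 724 ± 64.0 CPM and its partner S100a10 from 2033 ± 206 to 1089 ± 63.4 CPM (mean ± SD, n = 3). On the log2 scale the changes were -1.17 ± 0.12 and -0.90 ± 0.12 (SE), at adjusted p of 0.00127 and 0.00395 in edgeR. Both groups of 3 libraries stayed apart for both genes, and both calls held on leaving out each library in turn. They were 2 of the 3 tested genes of plasminogen binding and activation. The third, Plgrkt, for a plasminogen receptor and named here after its values were seen, lay higher in every kidney library than in any spleen/marrow library, at 148 ± 12.7 against 119 ± 3.61 CPM (mean ± SD, n = 3), with a log2 fold change of 0.32 ± 0.14 (SE, adjusted p = 0.172 in edgeR). Eno1, of the same list, had 0 to 8 counts a library and was not tested, while the deposited FPKM lists it at 39.3 to 57.0.

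Of uPAR partners and fibrin receptors, 4 of 9 tested rose and none fell. Itgam, whose integrin binds fibrin and uPAR, rose by a log2 fold of 1.25 ± 0.31, Itgb1 by 1.07 ± 0.18, Itgav by 2.07 ± 0.33 and Itgax by 3.29 ± 0.46 (SE, adjusted p in edgeR = 0.0353, 0.00936, 0.00723 and 0.00422). Itgam is also on the list of monocyte markers, most of which were higher in kidney. Itgax kept its call on leaving out each library in turn, but it needed kidney libraries to pass the count filter. The calls of the other 3 were lost on leaving out spleen/marrow libraries: any of the 3 for Itgam (and kidney replicate 7), replicate 24 or 26 for Itgb1, and replicate 2 or 26 for Itgav.

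Among inhibitors and clearance genes, Lrp1, the receptor that takes up urokinase bound to its inhibitor, rose from 86.8 ± 16.8 to 217 ± 80.0 CPM (mean ± SD, n = 3), a log2 fold change of 1.32 ± 0.29 (SE, adjusted p = 0.0239 in edgeR). Its call ended when kidney replicate 7 or any 1 of the spleen/marrow libraries was left out. Among clade B serpins, the family of Serpinb2, 1 of 5 tested rose: Serpinb8, from 14.3 ± 2.27 to 49.4 ± 1.13 CPM, a call that held on leaving out each library.

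Fibrinogen, the substrate of thrombin, gave counts in kidney libraries only. Fgg had 667 counts, Fga 182 and Fgb 145 in kidney and none in spleen/marrow, at least 285-fold, 77.8-fold and 62.0-fold higher against 3 counts over that group. These 3 genes were the only tested ones of 12 coagulation factors outside the set, and all passed through the group where they are high. Fgg reached 32.9, 10.5 and 89.9 CPM in kidney replicates 7, 8 and 22, Fga 5.81, 1.39 and 35.8 CPM, and Fgb 6.75, 1.52 and 22.3 CPM. Replicate 22 was the highest for each of the 3 genes, and without it the bounds were 186-fold for Fgg, 31.0-fold for Fga and 35.6-fold for Fgb. Without replicate 8, the lowest, those of Fga and Fgb were 122-fold and 94.9-fold. The tubule sum had the same order (190, 83.4 and 510 CPM), but it rested mostly on Kap (148, 35.9 and 347 CPM). Slc34a1 and Umod shared that order, while Miox (14.6, 25.8 and 62.0 CPM), Lrp2 and Cubn were lowest in replicate 7. The part of tubule cells was not tested. Of 6 hepatocyte markers, a list that shares Fgb, Ahsg was at 0 in every library and the list summed to 12.9, 5.31 and 43.8 CPM in those kidney libraries.

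Tgm2, a tissue transglutaminase related to the factor XIII A subunit, rose in kidney. It stood at 2.99, 1.23 and 1.39 CPM in spleen/marrow replicates 2, 24 and 26, against 83.5, 81.4 and 152 CPM in kidney replicates 7, 8 and 22. Its log2 fold change was 5.79 ± 0.44 (SE, adjusted p = 0.000565 in edgeR), the call held on leaving out each library, and it was 1 of 3 tested genes of its list. Tgm2 needed kidney libraries to pass the count filter. Ano6, a scramblase that exposes the lipid on which clotting factors assemble, rose from 23.9 ± 2.40 to 49.6 ± 11.9 CPM, 1 of 5 tested in its list, and lost its call without any 1 spleen/marrow library.

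Serpine2, an inhibitor of thrombin and 1 of 4 tested anticoagulants, stood at 18.4, 165 and 6.17 CPM in the kidney (replicates 7, 8 and 22) against 2.66 ± 1.31 CPM in spleen/marrow. F2r, the thrombin receptor gene and the 1 tested of 4 protease receptors, stood at 2.73, 45.9 and 1.76 CPM in the same kidney libraries, with 392 counts in kidney and 2 in spleen/marrow. Its pooled ratio was 252 (95% exact binomial interval 69.2 to 2084, counting error only), and without kidney replicate 8, which held 363 of the 392 counts, it was 31.0 (7.85 to 268). F2r passed the filter through the kidney libraries only, so its call supports nothing. Both genes were highest by far in kidney replicate 8, as was the endothelial sum, whose part was not tested. The call of Serpine2 ended when kidney replicate 8 or any 1 of the spleen/marrow libraries was left out, and Serpine2 needed kidney libraries to pass the filter. None of 7 tested genes of factor maturation and secretion was called. Lman1 and Mcfd2, cargo receptors for factor V and, with Vkorc1, the genes of that list with the highest mean CPM in either group, had log2 fold changes of 0.06 ± 0.28 and 0.35 ± 0.19 (SE, adjusted p in edgeR = 0.915 and 0.293), and that of Lman1 turned sign with limma-voom and on the FPKM scale.

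**Figure D4:**
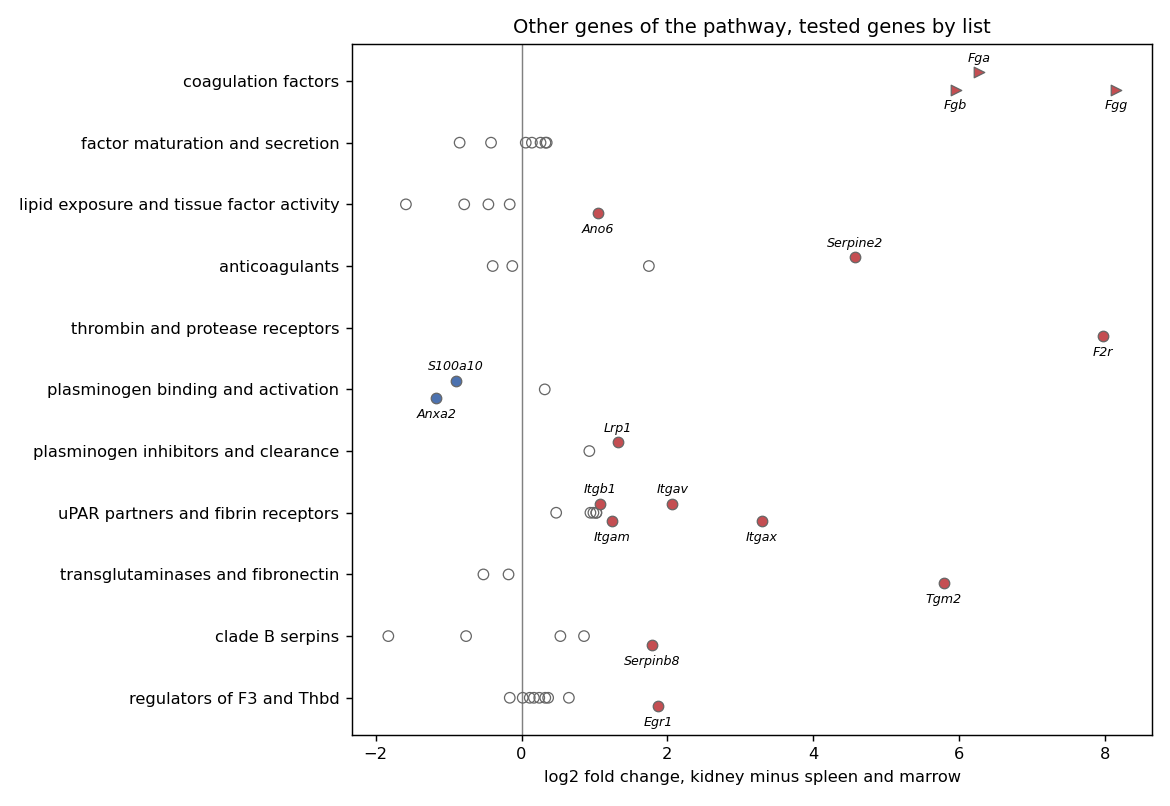
Log2 fold change (horizontal axis, kidney minus spleen/marrow) of the tested pathway genes that are reported here, 1 row per list; filled points passed edgeR's adjusted p under 0.05 (red higher, blue lower in kidney), open points did not. Triangles are lower bounds against 3 counts over the spleen/marrow group, and F2r is drawn at its pooled ratio; Anxa2 and S100a10 are the filled points left of 0.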

How the data were processed

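Raw counts per gene symbol and FPKM values were deposited by the authors, 6 libraries each. The deposited FPKM values are scaled for depth and transcript length. Libraries were made from 2 ng of RNA with SMART-Seq v4 and ThruPLEX reagents, per the labels, and do not mark strand. The submitters' processing notes list bcl2fastq 2.18, STAR 2.5, Cufflinks 2.2.1 and mm9, with no role given; which counter and annotation were used is not stated by the labels. Spike-in rows (92, all at 0 counts) were left out.

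Counts were tested with edgeR 4.0.16 (R 4.3.3): filterByExpr, TMM, glmQLFit and glmQLFTest, with Benjamini-Hochberg adjustment over 10626 genes. CPM uses TMM-adjusted library sizes. A standard error is the log2 fold change divided by the square root of F, and intervals use the test's degrees of freedom. The script was tested on simulated data. Alternatives used limma 3.58.1, DESeq2 1.42.0, other filters and scalings, log2(FPKM + 1) or log2(FPKM + 0.1), and leaving out libraries. Figures were drawn with matplotlib 3.10.9.

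The members, gene lists and tests were chosen with earlier results of these data known. All members were named; of each pathway list, the called genes were named (at most 4 in each direction, by p), or the 2 most abundant where no gene was called. For each called member the 2 genes of highest Pearson r (log2 CPM, prior count 2) were named. Of the list genes, 1 pathway gene and 2 markers that stay in the counts and sums are not reported here. Promoter motifs were chosen after the windows were seen.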

Additional observations from a re-analysis of the deposited data

How the results depend on the processing

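Limits: 3 libraries a group, 1 shallow and distinct kidney library, and spleen/marrow replicates 24 and 26 that may not be independent. No paired analysis was possible because the groups share no replicate numbers. Over the whole table, 832 genes higher and 627 lower became 322 and 189 at an adjusted p under 0.01, 299 and 201 with replicates 24 and 26 summed, 1164 and 995 with DESeq2, 737 and 838 with limma-voom, 468 and 629 on log2(FPKM + 1) and 543 and 586 on log2(FPKM + 0.1); leaving out 1 library gave 260 to 1569 and 179 to 1215. The number of members that fell, 2, was 3 with DESeq2, limma-voom and no filter (F13a1 added), 0 at 0.01 or with the sum, 1 on either FPKM scale (F5), and 0 to 2 on leaving out 1 library; none rose in any setting. Pathway genes that rose, 15, were 7 at 0.01, 6 with the sum, 7 on log2(FPKM + 1), 8 on log2(FPKM + 0.1) and 5 to 22 on leaving out 1 library; those that fell, 2, were 4 with limma-voom and 2 to 5 on leaving out 1 library. Ordering members by median FPKM kept 7 of 9 ranks in spleen/marrow and 4 of 9 in kidney. Signs that turned belonged to genes without a call: Plaur was -0.0019 and -0.0021 and Lman1 -0.21 and -0.23 on log2(FPKM + 1) and log2(FPKM + 0.1), Thbd -0.17 on log2(FPKM + 0.1), and Lman1 -0.0892 with limma-voom and -0.0104 with the sum. On leaving out 1 library the log2 fold change ranged from -0.0745 to 1.48 for F7, -0.40 to 0.54 for Thbd, -0.13 to 0.18 for Plaur and -0.28 to 0.31 for Lman1. F10 lost its call on both FPKM scales (adjusted p = 0.0716 and 0.0766) and with the sum (0.107), as did F5 with the sum (0.124). Where the cause is not the smaller number of libraries or the stricter threshold, the cause was not tested.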

Other observations

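Several pathway genes under the count filter had counts in kidney and none in spleen/marrow, and were chosen after their values were seen. Plat, for tissue plasminogen activator, a product of endothelium, had 34, 1347 and 0 counts in kidney replicates 7, 8 and 22. Proc, for the anticoagulant protein C, had 27, 10 and 0 counts there, and Serpinf2, for the plasmin inhibitor, 8, 9 and 9. F9, for factor IX, had 10, 2 and 6 counts.

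For F3 and Plau the deposited tables differ in kidney replicate 22. F3 had 0 counts there and 0.222 FPKM, and Plau had 2 counts and was listed at 0 FPKM. With no filter on low counts, over 16762 genes, F3 had a log2 fold change of 5.08 ± 1.73 (SE, adjusted p = 0.0982 in edgeR) and Plau of 1.84 ± 0.9995 (edgeR adjusted p = 0.292).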
